A study of Mus musculus with 12 samples.

Results

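The Bcl2 family of apoptosis regulators was described by 10 genes, chosen by symbol: Bcl2, Bcl2l1 and Mcl1, which keep cells alive, Bax and Bak1, which permeabilise mitochondria, and the BH3-only genes Bcl2l11, Bbc3, Pmaip1, Bid and Bad. All 10 symbols matched a single row among the 54446 gene identifiers in each library, and 9 of them averaged 1 TPM or more and so were among the 15727 genes that entered the test. TPM, a transcript share, is a level normalised to gene length and to a fixed total per library. Rises and falls below are those of shares, not of RNA per cell. Bcl2 itself, with a mean of 0.626 TPM, fell below the limit. RNA had been sequenced from 12 libraries of mouse embryonic stem (ES) cells in 6 groups of 2, and the design asks how transcript shares respond to inhibition of mTOR, a growth-controlling kinase, and whether the response needs de novo DNA methylation.

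The KH groups were wild-type cells at 0 h without inhibitor and at 72 h and 144 h with Ink128 (INK128), a small-molecule mTOR inhibitor (mTORi). The DNMT3ABKO groups, without functional Dnmt3a and Dnmt3b, the enzymes of de novo DNA methylation, were sampled at the same times with the same inhibitor. The labels put E14 before both line names, while the methods of the study name KH2 as wild type, grown like the knockout cells on a fibroblast feeder layer and sorted as viable single cells before RNA extraction. Each genotype is 1 line, so genotype and line cannot be told apart. No untreated culture was sampled at 72 or 144 h, so the inhibitor and the time in culture cannot be told apart either. The study's reporting summary describes its experiments as independent repeats, with the time points of a replicate handled side by side, and does not describe the cultures behind these libraries one by one. P-values rest on the spread between the 2 libraries of a group, pooled for each gene over the 6 groups and moderated across genes. Each group comes from 1 line.

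As background, the family controls the mitochondrial route to apoptosis. Prosurvival members hold the effectors Bax and Bak1 in check, and BH3-only members, induced or activated by stress, bind prosurvival members or activate the effectors, after which cytochrome c leaves mitochondria and caspases are activated. Pluripotent stem cells are known for a low threshold to mitochondrial apoptosis, and many members are controlled after transcription, which RNA does not show.

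The line labels held at the targeted genes: in DNMT3ABKO cells the fitted log2 difference from KH was -2.48 to -2.24 for Dnmt3a and -3.39 to -2.78 for Dnmt3b over the 3 time points. The 8 ES cell markers were all detected. Their sums went from 3920 to 4160 TPM at 0 h to 6240 to 6360 TPM at 144 h in KH. In DNMT3ABKO they went from 4020 to 4050 TPM to 6410 to 6450 TPM. Nanog was lower at 72 h in DNMT3ABKO (mean 264 TPM at 0 h and 186 TPM at 72 h), where no other marker was called lower and 6 were called higher. Summed markers of other cells fell with treatment: 12 fibroblast genes summed to 1050 to 1340 TPM at 0 h, 203 to 258 TPM at 72 h and 52.8 to 58.9 TPM at 144 h over both lines. The summed level of 8 macrophage genes went from 204 to 257 TPM at 0 h to 106 to 159 TPM at 72 h and 20.6 to 35.7 TPM at 144 h. Of these genes, Lyz2 held 146 to 184 TPM at 0 h. Cd68 did not fall in DNMT3ABKO, with 20.0 and 26.4 TPM at 0 h and 22.7 and 21.8 TPM at 144 h. These shifts accompany every comparison with 0 h below, and their part in the members' changes was not tested. In bulk RNA, fewer cells of a type and less RNA per cell cannot be told apart.

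Promoter sequence was available for 9 of the 10 members from RefSeq (GRCm38.p6, which shares mm10 coordinates), as windows from 250 bases before to 50 after each transcript start. The windows were searched on both strands for CACGTG, the E-box that binds TFE3, TFEB and Myc, and for TGTTTAC, a forkhead motif of the Foxo factors. No match of one overlapped a match of the other. Among 32851 mouse promoter windows, 7.15% held the first and 3.65% the second. The Bax window held 2 matches to CACGTG, 1 Bbc3 window held 1, and TGTTTAC occurred in 1 window each of Bcl2l11 and Bbc3. No match was present in the windows of Bcl2, Bcl2l1, Mcl1, Bak1, Bid or Bad. The 250 bases upstream are shown for an effector and a BH3-only gene that carry a match, with the match in capitals (for Bcl2l11 as the reverse complement, GTAAACA), written on the strand of the gene.
Bax, chr7:45466899-45467148, minus strand: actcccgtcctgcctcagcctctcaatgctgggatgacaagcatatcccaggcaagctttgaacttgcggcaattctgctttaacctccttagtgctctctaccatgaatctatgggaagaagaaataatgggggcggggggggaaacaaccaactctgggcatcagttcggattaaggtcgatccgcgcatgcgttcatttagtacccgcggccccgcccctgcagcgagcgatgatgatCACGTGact
Bcl2l11, chr2:128125788-128126037, plus strand: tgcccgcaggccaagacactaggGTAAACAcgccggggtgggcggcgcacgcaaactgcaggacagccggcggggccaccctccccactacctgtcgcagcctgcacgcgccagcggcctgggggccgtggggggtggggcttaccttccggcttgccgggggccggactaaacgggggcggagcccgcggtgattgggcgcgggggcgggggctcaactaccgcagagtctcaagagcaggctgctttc
These matches describe the letters only. Of the carriers, Bax passed the test in 0 of 11 comparisons, Bcl2l11 in 2 and Bbc3, whose windows hold both motifs, in 4. Of the tested members without a match, Bid passed it in 2, Mcl1 and Bak1 in 4 each, Bad in 6 and Bcl2l1 in 7. No window was available for Pmaip1, which passed it in 10. A link between motifs and changes was not tested.

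At 0 h Mcl1 and Bax were the most abundant members, and their libraries did not overlap each other or those of any other member. The KH group means were 249 TPM for Mcl1 and 191 TPM for Bax, followed by Bak1 at 45.1, Pmaip1 at 35.0, Bcl2l1 at 32.6, Bcl2l11 at 29.9, Bbc3 at 29.7, Bid at 25.4, Bad at 11.7 and Bcl2 at 0.706 TPM. Of the neighbours in that order, only Bcl2l11 and Bbc3 had overlapping libraries. At 144 h in KH the order had changed to Mcl1, Bax, Pmaip1, Bcl2l11, Bbc3, Bak1, Bcl2l1, Bid, Bad and Bcl2, with overlap between Bcl2l1 and Bid alone.

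**Figure D1:**
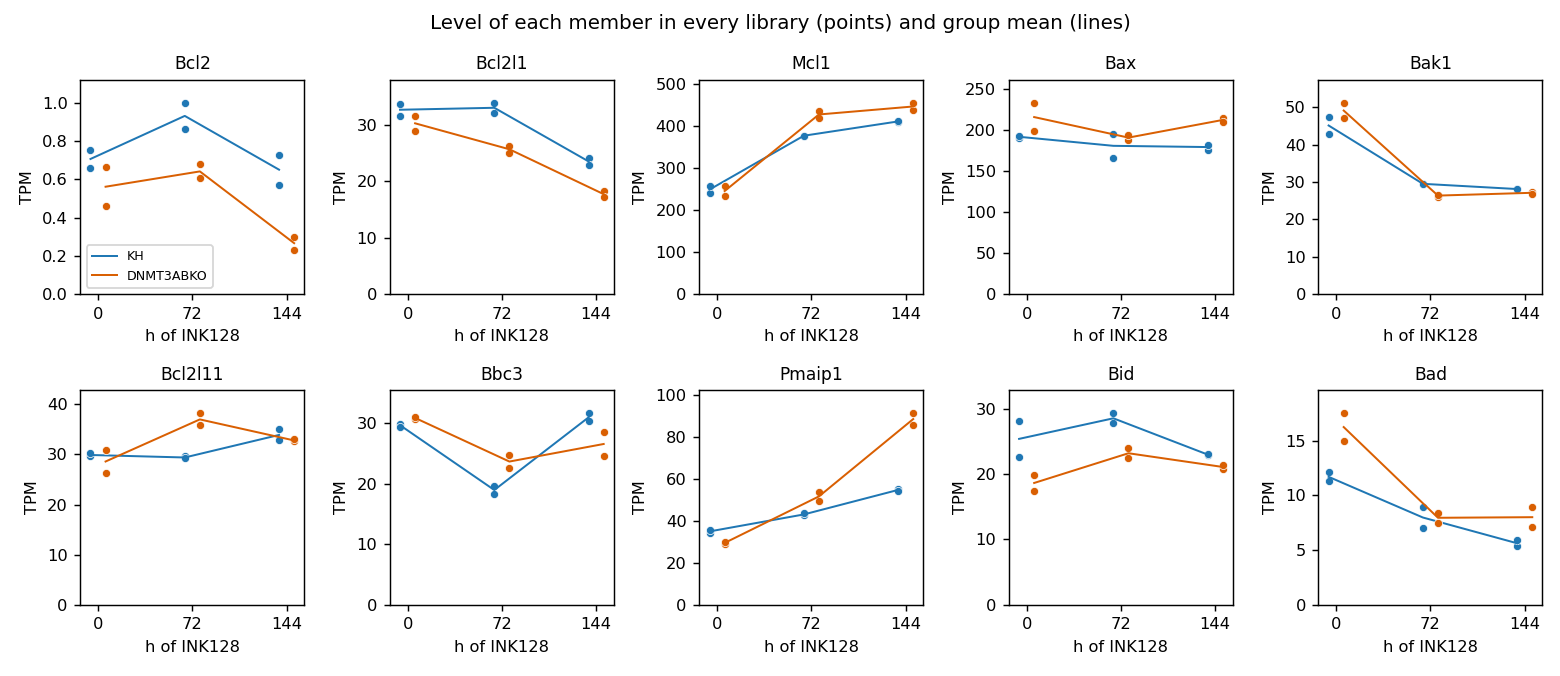
TPM (vertical axis, from 0) of the 10 members against hours of INK128, with 1 point per library and a line through the mean of each group of 2, KH in blue and DNMT3ABKO in orange. Mcl1 and Pmaip1 climb in both lines, Bak1 and Bad fall, Bbc3 dips to 18.3 to 24.7 TPM at 72 h, and the highest Pmaip1 libraries are those of DNMT3ABKO at 144 h (85.9 and 91.3 TPM).

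Among the prosurvival members, Mcl1 rose and Bcl2l1 fell. Mcl1 encodes a short-lived prosurvival protein. In KH it was at 241 and 256 TPM at 0 h, 376 and 377 TPM at 72 h, and 410 and 411 TPM at 144 h. In DNMT3ABKO the corresponding values were 234 and 256, 435 and 419, and 437 and 455 TPM. Every treated library of either line lay above every untreated library. The fitted log2 difference of (TPM + 1), the scale of all fitted changes here, was 0.60 ± 0.06 (SE) at 72 h in KH (limma adjusted p = 5.94e-05) and 0.72 ± 0.06 at 144 h (adjusted p = 1.04e-05). In DNMT3ABKO it was 0.80 (adjusted p = 5.11e-06) and 0.86 (adjusted p = 1.77e-06), which at 144 h is a ratio of mean TPM of 1.82. Between 72 and 144 h the difference did not pass the test in KH (0.13, adjusted p = 0.191) or DNMT3ABKO (0.06, adjusted p = 0.521), so most of the rise lay within the first interval. The DNMT3ABKO libraries lay above the KH libraries at 72 h (0.18, 95% interval 0.04 to 0.32, adjusted p = 0.0753) and at 144 h (0.12, -0.02 to 0.26, adjusted p = 0.206), but neither difference passed the test. The 72 h difference passed under 4 of the alternatives, among them median-ratio scaling. The difference in the 144 h response did not pass (0.14, -0.06 to 0.34, adjusted p = 0.384).

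Bcl2l1 (Bcl-xL), the other abundant prosurvival member, was at 31.6 and 33.7 TPM at 0 h, 33.9 and 32.1 TPM at 72 h, and 24.1 and 22.9 TPM at 144 h in KH. In DNMT3ABKO it was at 28.9 and 31.6 TPM, then 26.3 and 25.0 TPM, then 18.2 and 17.2 TPM. The 0 h and 72 h libraries of KH overlapped, whereas in DNMT3ABKO each time point lay below the one before it. Bcl2l1 fell by 0.46 at 144 h in KH (SE 0.08, adjusted p = 0.000712) and by 0.74 in DNMT3ABKO (SE 0.08, adjusted p = 2.13e-05). At 72 h the change was 0.02 in KH (adjusted p = 0.89) and -0.23 in DNMT3ABKO (adjusted p = 0.0288), and the difference between these responses did not pass the test (-0.24, adjusted p = 0.275). The 72 h call in DNMT3ABKO was lost without replicate 2 at 0 h or either replicate at 72 h, and with the replicate number as a block (adjusted p = 0.0598). DNMT3ABKO cells were lower than KH cells at 72 h by 0.35 (adjusted p = 0.0106) and at 144 h by 0.39 (adjusted p = 0.00454), the former not without replicate 1 of KH or replicate 2 of DNMT3ABKO at 72 h.

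Bcl2, the founding member, was scarce throughout. Its values ranged from 0.571 to 1.0 TPM in KH and from 0.232 to 0.678 TPM in DNMT3ABKO. The lowest libraries were those of DNMT3ABKO at 144 h, at 0.3 and 0.232 TPM, against 0.571 and 0.729 TPM in KH at that time. In a fit without the filter on low values, Bcl2 was lower there by 0.38 (adjusted p = 0.0315) and had fallen by 0.30 from 0 h (adjusted p = 0.0434). It was also lower than at 72 h in that line by 0.37 (adjusted p = 0.035), and no other comparison of Bcl2 passed that test.

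Summed within each library, the 3 prosurvival members held 274 and 291 TPM at 0 h in KH, 411 and 410 TPM at 72 h, and 435 and 435 TPM at 144 h. In DNMT3ABKO the sums were 263 and 288, 462 and 445, and 456 and 472 TPM. Mcl1 made up nearly all of this sum, so the sum followed Mcl1. TPM of Mcl1 per TPM of Bcl2l1 moved from 7.63 and 7.62 to 17.0 and 18.0 at 144 h in KH, and from 8.09 and 8.1 to 24.0 and 26.5 in DNMT3ABKO, with no overlap between any of the 3 time points within a line. These ratios, given as description without a test, compare transcript shares and not protein.

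**Figure D2:**
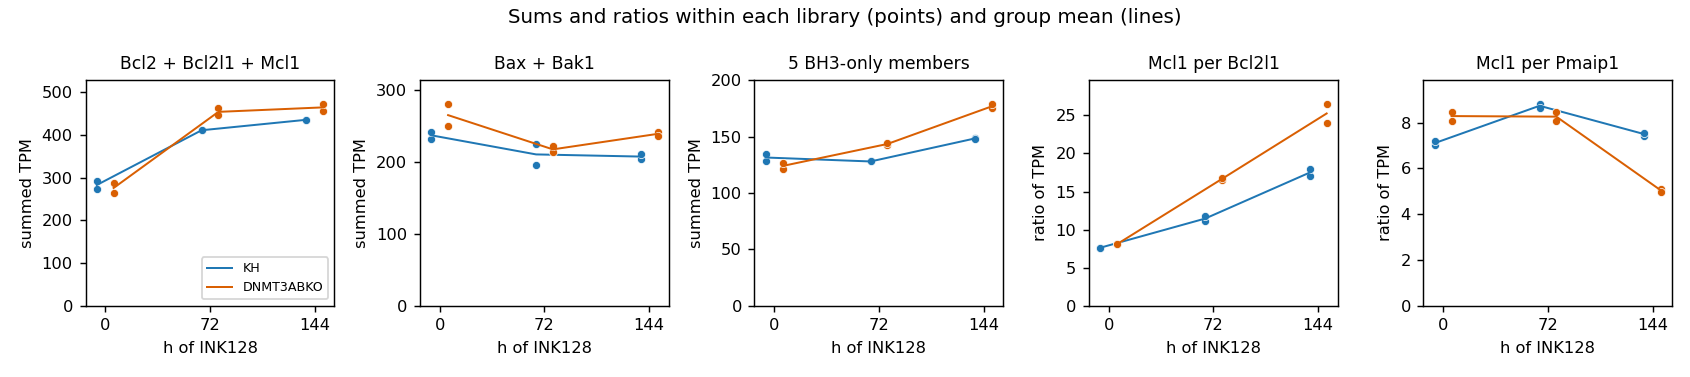
Summed TPM of the 3 prosurvival, 2 effector and 5 BH3-only members, and the TPM ratios of Mcl1 to Bcl2l1 and of Mcl1 to Pmaip1, against hours of INK128, with 1 point per library and lines through group means. The prosurvival sum rises to 410 to 472 TPM in all treated libraries, and Mcl1 per Pmaip1 drops to 5.09 and 4.98 only in DNMT3ABKO at 144 h, against 7.04 to 8.82 in all other libraries.

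The effectors behaved differently from each other. Bak1, which sits in the mitochondrial outer membrane, was at 42.7 and 47.5 TPM at 0 h in KH, 29.5 and 29.5 TPM at 72 h, and 28.0 and 28.2 TPM at 144 h. In DNMT3ABKO it was at 47.0 and 51.2, 26.1 and 26.6, and 27.3 and 26.9 TPM. All untreated libraries lay above all treated ones. Bak1 fell by 0.60 at 72 h (SE 0.07, adjusted p = 0.000138) and by 0.66 at 144 h (adjusted p = 4.74e-05) in KH, and by 0.87 (adjusted p = 7.54e-06) and 0.83 (adjusted p = 6.29e-06) in DNMT3ABKO. No later change and no difference between the lines passed the test. An exon of Bak1 touches Ggnbp1 on the opposite strand (6.76 to 14.8 TPM). Whether counting used strand is not stated, so reads of overlapping genes may be shared.

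Bax, which is largely cytosolic until activated, passed the test in 0 of 11 comparisons with limma, and reached an unadjusted p under 0.05 in 1. Its levels in KH were 190 and 193 TPM at 0 h, 195 and 166 TPM at 72 h, and 176 and 182 TPM at 144 h. In DNMT3ABKO they were 233 and 198, 187 and 194, and 214 and 210 TPM. The fitted changes were -0.09 at 144 h in KH (95% interval -0.30 to 0.11) and -0.02 in DNMT3ABKO (-0.23 to 0.18). The largest value was 0.24 for DNMT3ABKO against KH at 144 h, where the libraries did not overlap (adjusted p = 0.0825). When libraries were rescaled by their median ratio, the change at 72 h in DNMT3ABKO passed the test, with Bax lower by 0.31 (adjusted p = 0.0421). In a fit of only the groups compared, the line difference at 144 h and the change from 72 to 144 h in DNMT3ABKO passed as well. Bax per Bak1 rose from 4.44 and 4.07 at 0 h to 6.31 and 6.45 at 144 h in KH, and from 4.97 and 3.87 to 7.84 and 7.78 in DNMT3ABKO.

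The BH3-only members moved in different directions, with Pmaip1 up, Bad down, Bbc3 down at 72 h, and Bcl2l11 and Bid up at 72 h in DNMT3ABKO only by the test. Pmaip1 (Noxa), which binds Mcl1 in preference to Bcl-xL and is a classic p53 target, was at 34.3 and 35.7 TPM at 0 h, 42.6 and 43.6 TPM at 72 h, and 55.2 and 54.4 TPM at 144 h in KH. In DNMT3ABKO it went from 28.9 and 30.1 TPM to 53.8 and 49.6 TPM and then to 85.9 and 91.3 TPM. No 2 time points overlapped in either line. DNMT3ABKO libraries were the lower at 0 h and the higher at 72 and 144 h.

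Pmaip1 rose by 0.29 ± 0.07 at 72 h (adjusted p = 0.00516) and 0.63 ± 0.07 at 144 h (adjusted p = 3.74e-05) in KH. In DNMT3ABKO the rise was 0.79 ± 0.07 (adjusted p = 8.33e-06) and 1.55 ± 0.07 (adjusted p = 3.94e-08), a 3.0-fold ratio of mean TPM at 144 h against 1.57 in KH. The difference between the responses was 0.49 at 72 h (95% interval 0.28 to 0.71, adjusted p = 0.0151) and 0.92 at 144 h (0.71 to 1.13, adjusted p = 0.000142). The 72 h difference no longer passed without any 1 of 4 libraries, namely replicate 2 of KH at 0 h, either KH replicate at 72 h, or replicate 1 of DNMT3ABKO at 72 h (adjusted p from 0.052 to 0.0794), or with the replicate block (adjusted p = 0.0519), while the 144 h difference passed under each of these. Between 72 and 144 h Pmaip1 rose further in KH (0.34, adjusted p = 0.00548) and in DNMT3ABKO (0.77, adjusted p = 2.23e-05), the former not without replicate 1 of KH at 72 h. DNMT3ABKO cells were higher than KH cells by 0.26 at 72 h (adjusted p = 0.024) and 0.68 at 144 h (adjusted p = 4.89e-05), and the 0 h difference of -0.24 did not pass (adjusted p = 0.0548). The 72 h call was lost without either KH replicate or replicate 1 of DNMT3ABKO at 72 h, and with the replicate block (adjusted p = 0.0602). Of the summed TPM of BH3-only members, Pmaip1 made up 26.7% and 26.5% at 0 h and 37.1% and 36.8% at 144 h in KH, and 23.9% and 23.7% and then 49.1% and 50.9% in DNMT3ABKO. Mcl1 per Pmaip1 stood at 7.04 and 7.18 at 0 h and 7.43 and 7.57 at 144 h in KH, but went from 8.09 and 8.49 to 5.09 and 4.98 in DNMT3ABKO.

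Bad, a sensitiser BH3-only gene whose protein is held inactive by Akt phosphorylation, was at 12.1 and 11.3 TPM at 0 h, 7.02 and 8.94 TPM at 72 h, and 5.35 and 5.9 TPM at 144 h in KH. In DNMT3ABKO it was at 17.5 and 15.0, 8.43 and 7.48, and 7.1 and 8.92 TPM. Untreated libraries were above all treated ones within each line. At 144 h Bad fell by 0.94 in KH (SE 0.14, adjusted p = 0.000309) and by 0.94 in DNMT3ABKO (adjusted p = 0.000237), with ratios of mean TPM of 0.481 and 0.494. At 72 h it fell by 0.51 in KH (adjusted p = 0.0122), which did not pass without replicate 1 of KH at 0 h or at 72 h, and by 0.94 in DNMT3ABKO (adjusted p = 0.000277). DNMT3ABKO cells were higher by 0.44 at 144 h (adjusted p = 0.041), a call lost under 9 of 17 alternatives, and the fall of 0.43 from 72 to 144 h in KH (adjusted p = 0.0482) was lost under 11. With the replicate block their adjusted p was 0.0632 and 0.0734. Exons of Bad also touch Gpr137 on the opposite strand (4.35 to 8.54 TPM).

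Bbc3 (Puma), a p53-induced binder of all prosurvival members, was at 29.9 and 29.4 TPM at 0 h, 19.6 and 18.3 TPM at 72 h, and 30.3 and 31.6 TPM at 144 h in KH. In DNMT3ABKO it was at 30.7 and 31.0, 22.6 and 24.7, and 28.6 and 24.5 TPM. The 72 h libraries of KH lay below those of both other times. In DNMT3ABKO the 72 and 144 h libraries overlapped. Bbc3 fell by 0.62 at 72 h in KH (SE 0.09, adjusted p = 0.000284) and by 0.37 in DNMT3ABKO (adjusted p = 0.00435). From 72 to 144 h it rose by 0.68 in KH (adjusted p = 0.000424). The change of 0.16 in DNMT3ABKO did not pass (adjusted p = 0.206), and the lines were not compared over this step. The 144 h values did not differ from 0 h by the test (0.06 in KH, adjusted p = 0.597, and -0.21 in DNMT3ABKO, adjusted p = 0.0551). The difference between the lines in response did not pass at 72 h (0.25, limma adjusted p = 0.315) or 144 h (-0.27, limma adjusted p = 0.215). DNMT3ABKO cells were higher at 72 h by 0.30 (adjusted p = 0.0328), a call lost without either KH or either DNMT3ABKO replicate at 72 h or either KH replicate at 144 h, and with the replicate block (adjusted p = 0.0698).

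Bcl2l11 (Bim), an activator of Bax and Bak1 and a known Foxo target, was at 29.6 and 30.2 TPM at 0 h, 29.6 and 29.2 TPM at 72 h, and 35.0 and 32.8 TPM at 144 h in KH. In DNMT3ABKO it was at 26.3 and 30.9, 35.8 and 38.2, and 32.6 and 33.0 TPM. The highest libraries were those of DNMT3ABKO at 72 h. Bcl2l11 rose there by 0.36 from 0 h (SE 0.08, adjusted p = 0.00394) and was higher than in KH by 0.32 (adjusted p = 0.0219), though without any 1 of the 4 libraries at 72 h the latter did not pass. The difference between the 72 h responses was 0.39 and did not pass (95% interval 0.13 to 0.65, adjusted p = 0.0962). At 144 h the changes of 0.18 in KH (adjusted p = 0.1) and 0.20 in DNMT3ABKO (adjusted p = 0.0643) did not pass.

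Bid, which is activated by caspase-8 cleavage, ranged from 22.6 to 29.3 TPM in KH and from 17.4 to 24.0 TPM in DNMT3ABKO. Its lowest libraries were those of DNMT3ABKO at 0 h, at 17.4 and 19.9 TPM, against 22.6 and 28.2 TPM in KH. Bid was lower in DNMT3ABKO at 0 h by 0.42 (SE 0.11, adjusted p = 0.0347), a call that was lost in 13 of 17 alternatives (adjusted p = 0.0503 with the replicate block), and rose by 0.30 at 72 h in that line (adjusted p = 0.0327), lost in 6 of 17, among them the median-ratio scaling (0.17, adjusted p = 0.104) and the omission of replicate 1 at 0 h or of either replicate at 72 h. Neither change from 0 h in KH passed (0.17 at 72 h and -0.13 at 144 h). The difference between the 72 h responses of the lines did not pass either (0.13, limma adjusted p = 0.703). Exons of Bid touch Bcl2l13 on the opposite strand (12.3 to 20.9 TPM).

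**Figure D3:**
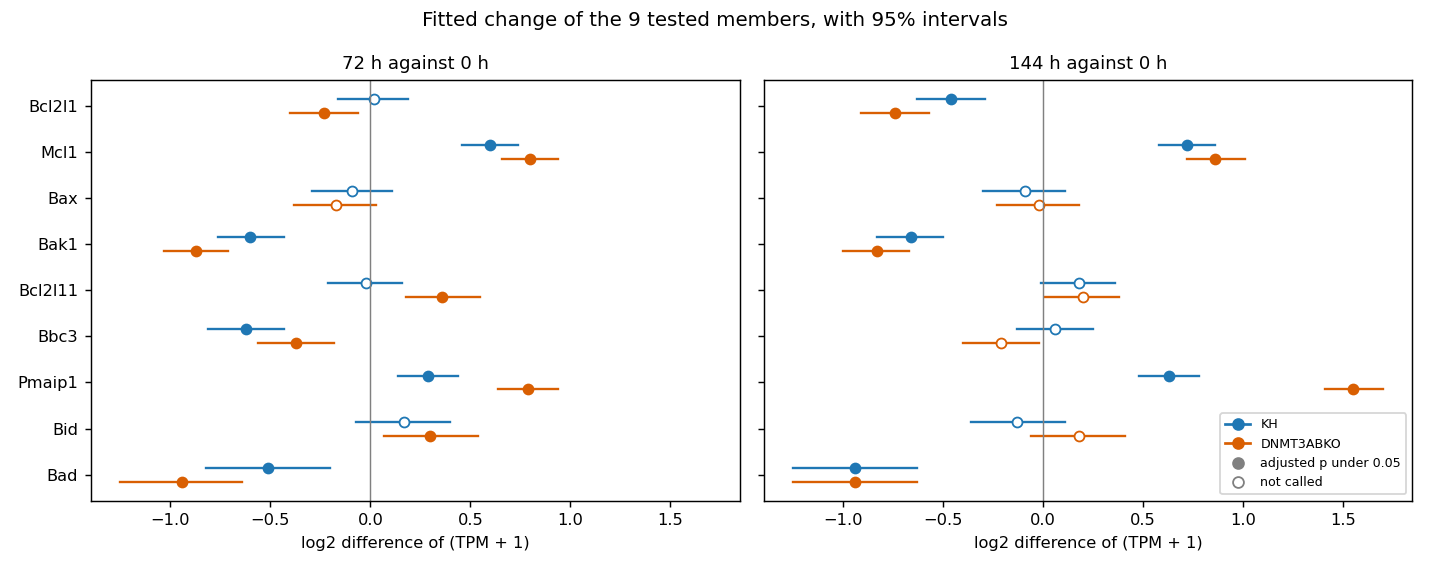
Fitted log2 difference of (TPM + 1) from 0 h (horizontal axis) for the 9 tested members at 72 h (left) and 144 h (right), with points for estimates, lines for 95% intervals and filled points for adjusted p under 0.05. Mcl1 and Pmaip1 lie right of 0 and Bak1 and Bad left of 0 in all 4 responses, Bax is open in all 4, and Pmaip1 at 144 h (0.63 in KH, 1.55 in DNMT3ABKO) has the widest separation of the lines.

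Counted over the 9 tested members, 2 were higher and 3 lower at 72 h in KH, where 28.3% of all tested genes were higher and 19.5% lower. At 144 h in KH, 2 were higher and 3 lower, against 27.4% and 23.9% of all genes. In DNMT3ABKO 4 were higher and 4 lower at 72 h (34.3% and 21.6% of all genes), and 2 were higher and 3 lower at 144 h (31.4% and 26.2%). Mcl1 and Pmaip1 were higher, and Bak1 and Bad lower, in each of these 4 comparisons, which share their 0 h libraries within a line. The median change of the members was -0.02, -0.09, -0.17 and -0.02 in the 4 comparisons in that order, beside 0.08, 0.05, 0.12 and 0.05 over all tested genes. The share of members called was close to the background in KH, and the highest count, 8 of 9, was at 72 h in DNMT3ABKO.

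From 72 to 144 h, 2 members were higher (Bbc3 and Pmaip1) and 2 lower (Bcl2l1 and Bad) in KH, against 7.24% and 15.6% of all genes. In DNMT3ABKO, Pmaip1 alone was higher and Bcl2l1 alone lower, against 8.81% and 18.5%. The members' medians were -0.01 and 0.04, beside -0.04 and -0.06 over all genes.

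Between the lines at 0 h, 0 members were higher and 1 (Bid) was lower in DNMT3ABKO, against 4.92% and 4.14% of all genes. There 1 member (Bad) was higher at an unadjusted p under 0.05. At 72 h, 3 were higher (Bcl2l11, Bbc3 and Pmaip1) and 1 lower (Bcl2l1), against 9.26% and 10%. With the replicate block 0 members were called between the lines at 0 h and 2 at 72 h. At 144 h, 2 were higher (Pmaip1 and Bad) and 1 lower (Bcl2l1), against 11% and 15.5%. The members' medians were -0.03, 0.08 and -0.05, beside -0.05, -0.04 and -0.04 over all genes. The difference in response was called higher in DNMT3ABKO for Pmaip1 at 72 h (3.38% of genes higher, 1.86% lower) and at 144 h (4.89% and 3.7%), and lower for 0 members at either time, with 2 lower at an unadjusted p under 0.05 at each time, and 0 members were called at 72 h with the replicate block. Beside the 72 h comparisons of the lines, the macrophage markers summed to 106 to 112 TPM in DNMT3ABKO and 156 to 159 TPM in KH, and their part was not tested. Medians of these differences were 0.13 and 0.02 for the members and 0.02 and 0.01 for all genes.

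Of 15 further family genes, 10 could be tested, and 5 of them were higher and 3 lower at 144 h in KH (median 0.26), with 4 higher and 3 lower in DNMT3ABKO (median 0.11). Over all tested genes, 27.4% were higher and 23.9% lower in KH, and 31.4% and 26.2% in DNMT3ABKO. Bmf, a BH3-only gene linked to detachment from the substrate, had the largest fitted change of the list. It was at 4.32 and 5.12 TPM at 0 h, 16.6 and 17.2 TPM at 72 h, and 20.8 and 20.0 TPM at 144 h in KH, and at 4.34 and 4.28, 17.1 and 16.7, and 13.9 and 15.1 TPM in DNMT3ABKO. Bmf rose by 1.91 at 144 h in KH (adjusted p = 1.42e-07) and by 1.54 in DNMT3ABKO (adjusted p = 3.06e-07). On this fitted scale that was above all 9 tested members in KH and just under Pmaip1 (1.55) in DNMT3ABKO. The scale understates changes of low genes. As means in DNMT3ABKO, Bmf went from 4.31 to 14.5 TPM and Pmaip1 from 29.5 to 88.6 TPM, so their order depends on the scale. Hrk, another BH3-only gene, rose by 0.57 (adjusted p = 0.00307) and 0.79 (adjusted p = 0.000336) from 0 h levels under 1 TPM. The mitophagy receptor Bnip3 rose by 0.70 in KH (adjusted p = 0.0047) and 0.52 in DNMT3ABKO (adjusted p = 0.0191), and its relative Bnip3l by 0.30 (adjusted p = 0.0255) and 0.53 (adjusted p = 0.00105).

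The 2 tested prosurvival relatives fell. Bcl2l2 (Bcl-w) went from 9.17 and 9.38 TPM at 0 h to 8.17 and 7.86 TPM at 72 h and 6.59 and 6.18 TPM at 144 h in KH, and from 10 and 9.38 TPM to 6.18 and 6.14 TPM and 3.74 and 3.62 TPM in DNMT3ABKO. It fell by 0.48 at 144 h in KH (adjusted p = 0.000821) and by 1.19 in DNMT3ABKO (adjusted p = 1.1e-06), and the difference of -0.72 passed the test (95% interval -0.97 to -0.46, adjusted p = 0.00384). Bcl2a1b, a prosurvival gene of blood cells, fell by 1.21 and 1.13 at 144 h, beside the fall of the summed macrophage markers. At 72 h, when that sum was already lower, Bcl2a1b had changed by 0.02 in each line (adjusted p = 0.922 and 0.915). Bok, an effector-like member, fell by 0.56 in KH (adjusted p = 0.00778), which did not pass without replicate 1 at 144 h, and by 1.03 in DNMT3ABKO (adjusted p = 0.000143). Bik, a BH3-only gene of the endoplasmic reticulum, changed by -0.17 (adjusted p = 0.485) and 0.14 (adjusted p = 0.568) at 144 h, neither past the test. At 72 h it was lower in KH, from a mean of 2.09 to 0.932 TPM (-0.68, adjusted p = 0.0172). The change in DNMT3ABKO did not pass (0.33, adjusted p = 0.177), and Bik was higher there than in KH (0.81, adjusted p = 0.0171). The difference between the 72 h responses did not pass (adjusted p = 0.0717).

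**Figure D4:**
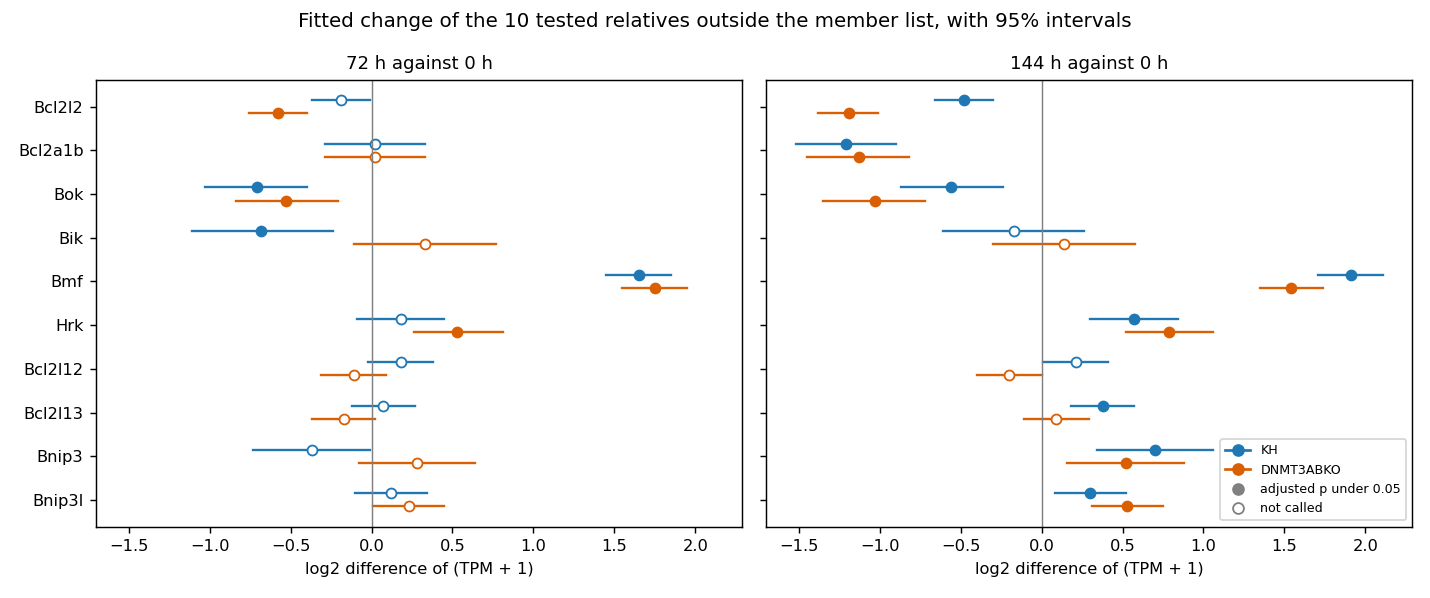
Fitted log2 difference of (TPM + 1) from 0 h for the 10 tested relatives outside the member list at 72 h (left) and 144 h (right), drawn as points with 95% intervals, filled where adjusted p was under 0.05. Bmf lies farthest right in all 4 responses (1.91 and 1.54 at 144 h), and Bcl2l2 lies farther left in DNMT3ABKO (-1.19) than in KH (-0.48) at 144 h.

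Downstream of the family, 4 of 20 execution genes were higher and 9 lower at 144 h in KH (median -0.2), and 3 were higher and 9 lower in DNMT3ABKO (median -0.04). The shares over all tested genes were 27.4% higher and 23.9% lower in KH, and 31.4% and 26.2% in DNMT3ABKO. Casp8, the initiator caspase of death receptors that cleaves Bid, fell by 1.46 (adjusted p = 1.75e-05) and 1.54 (adjusted p = 7.19e-06). Casp6, which encodes another caspase, was at 5.7 and 5.49 TPM at 0 h and 2.75 and 2.98 TPM at 144 h in KH, and at 5.48 and 5.26 and then 2.39 and 2.81 TPM in DNMT3ABKO. It fell by 0.77 (adjusted p = 0.00024) and by 0.83 (adjusted p = 0.000111). Endog (-0.86 in KH, -0.70 in DNMT3ABKO) and Birc3 (-0.68 and -0.89) also fell in both lines. Diablo rose by 0.38 (adjusted p = 0.0114) and Birc5 by 0.20 (adjusted p = 0.0358) in DNMT3ABKO, and Birc6 by 0.44 in KH (adjusted p = 0.0445). These calls were lost under 3, 11 and 11 of the alternatives. Xiap, an inhibitor of caspases, rose by 0.42 (adjusted p = 0.0151) and 0.50 (adjusted p = 0.00567), the former lost without replicate 2 at 0 h or either replicate at 144 h in KH, and Casp2 rose by 0.64 in KH (adjusted p = 0.000222), with a change of 0.13 in DNMT3ABKO (adjusted p = 0.234).

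Among regulators, 6 of 13 tested genes were higher and 2 lower at 144 h in KH (median 0.17), and 4 were higher and 4 lower in DNMT3ABKO (median 0.17). Beside these stand 27.4% higher and 23.9% lower of all tested genes in KH, and 31.4% and 26.2% in DNMT3ABKO. Foxo3, which activates Bcl2l11 and Bbc3 in other settings, went from 18.0 and 20.1 TPM at 0 h to 47.0 and 45.5 TPM at 144 h in KH, and from 16.4 and 18.7 to 50.7 and 50.1 TPM in DNMT3ABKO. It rose by 1.24 (adjusted p = 1.32e-06) and 1.48 (adjusted p = 2.01e-07). Akt1, whose kinase restrains Foxo3 and Bad, fell by 1.04 (adjusted p = 9.54e-06) and 1.23 (adjusted p = 1.72e-06). The genes for Huwe1, a ubiquitin ligase of Mcl1, and Usp9x, which removes ubiquitin from it, rose by 0.69 and 0.68 in KH and by 0.44 and 0.74 in DNMT3ABKO, the Huwe1 call in DNMT3ABKO being lost without replicate 1 at 0 h or either replicate at 144 h.

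Trp53, the gene for p53, rose by 0.32 (adjusted p = 0.00877), lost without replicate 1 of KH at 0 h, and by 0.36 (adjusted p = 0.00422). The p53 target genes given here are a selection. At 144 h Pmaip1 was higher, and Bax and Bbc3 did not pass. Mdm2, the p53 ubiquitin ligase, was lower by 0.48 (adjusted p = 0.000234) in KH and 0.71 (adjusted p = 1.21e-05) in DNMT3ABKO. The p53 relative Trp73 fell by 0.99 in DNMT3ABKO (adjusted p = 0.000106), with a change of -0.18 in KH (adjusted p = 0.28). Untreated DNMT3ABKO cells were already higher in Trp73 than KH cells, by 0.63 (adjusted p = 0.014).

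**Figure D5:**
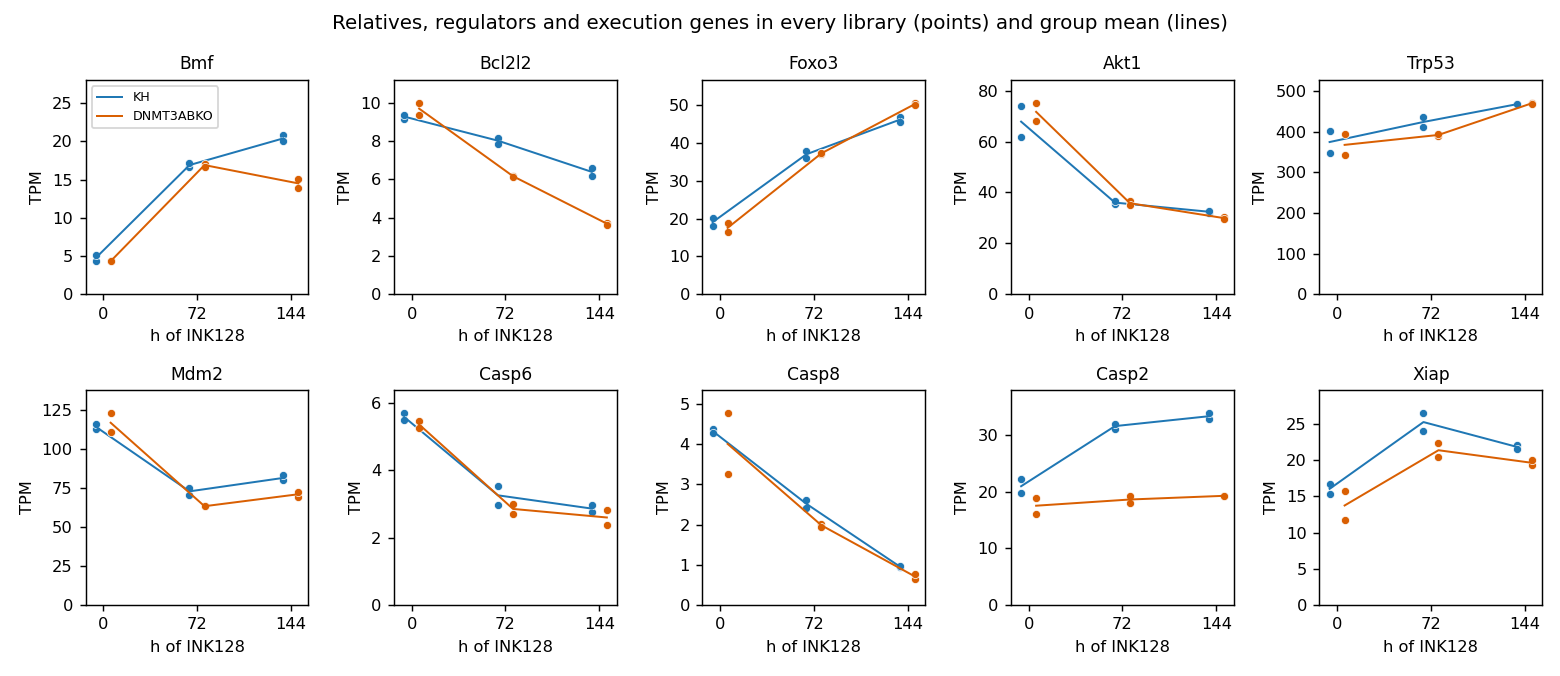
TPM (vertical axis, from 0) against hours of INK128 for 10 genes of the family's surroundings named in the text, with 1 point per library and lines through the group means. Foxo3 and Bmf climb and Akt1, Mdm2, Casp6 and Casp8 fall in both lines, whereas Bcl2l2 at 144 h is lower in DNMT3ABKO (3.74 and 3.62 TPM) than in KH (6.59 and 6.18 TPM).

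As a description of shared patterns, the tested genes most like Bad, the member with the largest absolute change at 144 h in KH, were Gm7049 (Pearson r = 0.96 over the 12 libraries), Zmat2 (r = 0.956) and Bscl2 (r = 0.954). The 12 points include the same treatment groups and carry no test.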

How the data were processed

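The data are 12 ES cell libraries of RNA depleted of ribosomal RNA. The authors trimmed reads with cutadapt, aligned them to mm10 with STAR and quantified GENCODE genes with StringTie, and deposited TPM per gene, 1 library per file. TPM keeps no depth, so the depth of a library is unknown and intervals for counting error are left out. ERCC RNA had been added, but the files hold 0 spike-in rows, so values are shares, and total RNA per cell was not analysed here. With ERCC normalisation the study reports that mTORi lowered transcription globally in wild-type and Dnmt3a/b knockout cells. A higher share is therefore not in itself a higher level per cell. Repeated identifiers (9 to 16 rows per file) were summed.

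Genes averaging 1 TPM or more were fitted as log2(TPM + 1), which understates changes of low genes, with limma 3.58.1 (R 4.3.3, mean-variance trend), 6 group coefficients and no covariate, in 11 contrasts. Calls needed a Benjamini-Hochberg adjusted p under 0.05 over all 15727 genes, and every adjusted p is from limma. The study's count-based test was not used, since TPM are not counts. Each gene had 1 spread for all 6 groups. Replicates differed most in DNMT3ABKO at 0 h (SD 0.272 on the log2 scale, against 0.133 to 0.176 in the other groups). Code was tested on simulated data. The block follows the study's statement that time points of a replicate were handled side by side. Deviations of same-numbered libraries correlated at -0.104 to 0.1 between times of a line, and at 0.336, -0.064 and 0.039 between the lines at 0, 72 and 144 h. The alternatives tried were no filter, a pseudocount of 0.1 TPM, median-ratio scaling, only the contrast's groups, the replicate number of a line as a blocking term, and leaving out each library. Named genes were the members, at most the 3 highest and 3 lowest called genes of each further list at 144 h without overlap, and Trp53, Foxo3, Bok, Bmf, Bik and Bcl2l2. An item of the execution list is not reported here. Likeness was the 3 highest Pearson r to the member with the largest change. Ddit3 matched 2 rows and was left out. Members and lists were chosen with earlier results of these data known. Coordinates are those of mm10. Python 3.11.15, pandas 2.3.3, NumPy 2.4.6 and matplotlib 3.10.9 were used.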

Additional observations from a re-analysis of the deposited data

Results flagged for a closer look

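Among the members, their relatives, and the execution and upstream genes, the effect of mTORi differed between the lines for 5, by the test of the difference itself. At 144 h these were 1 of 9 tested members, 1 of 10 relatives, 1 of 20 execution genes and 2 of 13 upstream genes. Over all tested genes, 4.89% were higher and 3.7% lower in that comparison. At 72 h it was 1 of 9 members, against 3.38% higher and 1.86% lower of all genes. Pmaip1 rose more in DNMT3ABKO than in KH, by 0.49 at 72 h and 0.92 at 144 h on the log2 scale, and DNMT3ABKO libraries were the highest of all at 144 h. Bcl2l2 fell further in DNMT3ABKO at 144 h, with a difference of -0.72, and the 144 h response was also lower there for Casp2 (-0.51, adjusted p = 0.0342), Trp73 (-0.81, adjusted p = 0.0221) and Foxo4 (-0.38, adjusted p = 0.036), the last named after its values were seen. For Trp73 the lines already differed untreated, with DNMT3ABKO higher than KH at 0 h by 0.63 (adjusted p = 0.014). At 144 h Trp73 did not differ between the lines by the test (-0.18, adjusted p = 0.342). Its mean over the 12 libraries was close to the limit of 1 TPM for testing. The difference at 144 h passed under every alternative run for Pmaip1 and Bcl2l2, and the Pmaip1 difference at 72 h was lost under 6 of 17. The Casp2, Trp73 and Foxo4 differences were lost under 11, 7 and 11 of 17, the first and the last also with the replicate block (adjusted p = 0.0615 and 0.0881), and all 3 when certain single libraries of either line were left out. At 144 h the macrophage markers summed to 34.9 to 35.7 TPM in DNMT3ABKO and 20.6 to 20.7 TPM in KH. At 72 h they summed to 106 to 112 and 156 to 159 TPM. Cd68 held 22.7 and 21.8 TPM of the 144 h sums in DNMT3ABKO, and 14.8 and 15.3 TPM in KH. The part of these markers in the differences between the lines was not tested. No group had the 4 libraries that a search for outlying samples needs.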

How the results depend on the processing

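Of the 39 calls of members, 39 held with a pseudocount of 0.1 TPM, 37 with median-ratio scaling, 35 without the filter, 33 with only the contrast's groups and 32 with the replicate block, and none changed sign. The replicate block changed the 7 calls of members given with it above and no other call of a member. The cause of the changes below was not tested. Members called between lines at 0 h went from 1 to 0 without the filter, with the contrast's groups only and with the replicate block, and to 0 to 4 when 1 library was left out. Between lines at 72 h, 4 became 2 with the replicate block, and 0 to 6 with 1 library left out. For the difference in the 72 h response, 1 became 3 with median-ratio scaling, 0 with the contrast's groups only, 0 with the replicate block, and 0 to 3 with 1 library left out. In DNMT3ABKO at 72 h, 8 became 5 with the contrast's groups only. The Pmaip1 difference at 72 h had an adjusted p of 0.0519 with the replicate block, and 0.00594 to 0.0794 over all alternatives.

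The values that changed direction had not passed the test. With median-ratio scaling, they were Bcl2l1 at 72 h in KH (-0.09), Bbc3 at 144 h in KH (-0.0), Bax from 72 to 144 h in KH (0.05), Mcl1 between lines at 0 h (0.03), Bak1 (0.0) and Bcl2l11 (0.01) between lines at 144 h, and Bad in the difference at 144 h (-0.01). This scaling moved the median of all genes at 72 h in DNMT3ABKO from 0.12 to about 0. With 1 library left out, values ranged in KH from -0.03 to 0.06 for Bcl2l1 and -0.21 to 0.03 for Bax at 72 h, from -0.28 to 0.03 for Bid and -0.46 to 0.11 for Bik at 144 h, and from -0.12 to 0.11 for Bax from 72 to 144 h. In DNMT3ABKO they ranged from -0.14 to 0.09 for Bax and -0.05 to 0.33 for Bik at 144 h, and from -0.14 to 0.15 for Bad from 72 to 144 h. Between lines they ranged from -0.09 to 0.04 for Mcl1 and -0.18 to 0.05 for Bcl2l11 at 0 h, and from -0.03 to 0.2 for Bax and -0.15 to 0.16 for Bad at 72 h. In the difference of responses they ranged from -0.2 to 0.03 for Bax and -0.02 to 0.29 for Bid at 72 h, and from -0.05 to 0.19 for Bax, -0.09 to 0.13 for Bcl2l11, -0.14 to 0.15 for Bad and -0.07 to 0.14 for Trp53 at 144 h. A group with 1 library left is assumed to vary like the others. TPM hold no depth, so how far depth limits these values is unknown.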
